A study of Mus musculus with 6 samples.

Results

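A set of 10 endothelial genes was followed here across mouse embryonic stem cells (ESCs) and the embryoid bodies (EBs) made from them. They were *Cdh5*, *Pecam1*, *Kdr*, *Tek*, *Tie1*, *Flt1*, *Cd34*, *Eng*, *Emcn* and *Esam*, chosen as receptors and junction genes of the endothelium and matched by symbol. All 10 were found among the 21639 gene entries of the deposited expression table, with 1 entry each. Poly(A) RNA was sequenced from 3 ESC lines on day 0 (D0) and day 3 (D3), and each of the 6 conditions has 1 library. The question was how the extended acidic patch of the histone variant H2A.Z bears on gene expression in ESCs and as they differentiate.

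The H2A.Z WT line carried a YFP-tagged wild-type H2A.Z transgene, and the H2A.Z AP3 line carried the same transgene with the acidic patch substitutions G92N, D97N and S98K. Both transgenes were driven by a doxycycline-inducible CMV promoter, and hairpins against endogenous H2A.Z were introduced into both lines. The cells labelled H2A.Z KD received the hairpins to deplete H2A.Z. D0 cells were ESCs grown in LIF, with the last passage off feeder cells, and D3 cells were EBs formed without LIF on non-adherent plates. The transgenic cells had been sorted for YFP. The labels name the strain V6.5 (129SvJaexC57BL/6), whereas the protocol in them describes lines made in KH2 ESCs, and they call the D3 samples ES cells too. With 1 library per condition, the differences below could not be checked against replicates, and p-values were not computed.

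The level of *H2afz*, the gene for H2A.Z, was 279 RPKM in H2A.Z WT on D0, 304 RPKM in H2A.Z AP3 and 343 RPKM in the library labelled H2A.Z KD. On D3 it was 258, 394 and 236 RPKM in the same order. On D0 the library labelled H2A.Z KD thus had more *H2afz* RNA than H2A.Z WT, and on D3 only slightly less. Reads of the transgene and of the endogenous gene were not told apart in these values, so this check of the labels is limited. The study itself reported, from qRT-PCR and western blots, that the hairpins depleted endogenous H2A.Z. Sequencing depth, read off the spacing of the smallest RPKM values, came to 16600000 to 30100000 reads per library, and 11644 to 11802 entries reached 1 RPKM. The ESC marker *Pou5f1*, which encodes the pluripotency factor Oct4, stood between 358 and 540 RPKM in the 6 libraries.

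Endothelial cells line blood vessels, and they read growth signals through dedicated receptor families. *Kdr* (VEGFR2) transmits the signal of VEGF, whereas *Flt1* (VEGFR1) binds VEGF tightly and can act as a decoy. *Tek* (Tie2) binds angiopoietins, and *Tie1* is the related receptor that partners it. *Eng* (endoglin) is a co-receptor for TGF-β and BMP ligands. *Cdh5* (VE-cadherin), *Pecam1* (CD31) and *Esam* hold neighbouring endothelial cells together, and *Cd34* and *Emcn* are surface sialomucins. *Kdr* also marks early mesoderm before vessels form, *Pecam1* is also present on undifferentiated ESCs, and *Cd34* is shared with blood progenitors.

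Promoter sequence was looked at because *Kdr*, *Tie1* and *Cd34* were among the genes that differed most between lines. RefSeq promoters (GRCm38.p6, 250 bases before to 50 after the start) matched 7 of the 10 genes, which leaves *Cdh5*, *Pecam1* and *Esam* as names only. The motifs searched on both strands were CAGGAA and CGGAAG, letters typical of ETS factor sites, AGATAA, typical of GATA factor sites, and GGGCGG, the GC box. They can overlap one another by few bases, and overlapping matches were counted for each motif. The windows below are 30 bases long and read on the gene's own strand, and capitals mark the motif or its reverse complement. They lie at chr5:75978483-75978512 on the minus strand for *Kdr*, at chr4:118490064-118490093 on the minus strand for *Tie1*, and at chr1:194938615-194938644 and chr1:194938668-194938697 on the plus strand for *Cd34*.
Kdr, GC box: ccggtaatgaccCCGCCCccattcgctagt
Tie1, CGGAAG: cttctcaataggCGGAAGccactggcttcc
Cd34, CAGGAA, distal: gaattgtgttgtTTCCTGcttagctgaaag
Cd34, CAGGAA, proximal: gtacacagtggcTTCCTGccacacttaaaa

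These motifs begin at position -45 for *Kdr*, -232 for *Tie1*, and -194 and -141 for *Cd34*, counted from the start site. CAGGAA was in 5 of the 7 promoters (*Tek*, *Tie1*, *Cd34*, *Eng* and *Emcn*) and in 30.6% of all 32851 promoters of the same length. GGGCGG was in the promoters of *Kdr* (2 matches) and *Flt1* (3 matches), and in 35.7% of all promoters. CGGAAG was in *Tie1* alone among the 7 and in 16.9% of all, and AGATAA in *Tek* alone and in 11.2% of all. The VEGF receptor promoters were the richest in CpG of the 7, with observed-over-expected ratios of 0.780 for *Flt1* and 0.689 for *Kdr* beside a median of 0.384 over all promoters. The other 5 lay between 0.149 (*Tek*) and 0.374 (*Cd34*). A match is a description of letters in this window and not a bound site.

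Most of the 10 genes were weakly expressed in all 6 libraries. *Pecam1* was the highest, between 6.77 and 14.2 RPKM, followed by *Eng* between 3.66 and 5.55 RPKM. *Cd34* lay between 0.662 and 3.69 RPKM, *Esam* between 1.45 and 3.24 RPKM and *Tek* between 0.843 and 1.37 RPKM. *Kdr*, *Flt1*, *Cdh5* and *Tie1* stayed below 1.61 RPKM throughout, and *Emcn* was listed at 0 in 4 libraries. RPKM is scaled for transcript length, so these levels can be set beside each other. From 4 to 7 of the 10 genes reached 1 RPKM in a library, with 7 in H2A.Z AP3 EBs and 4 or 5 in each of the others. Summed over all 10 genes, the level was 27.2 RPKM in H2A.Z AP3 EBs and 19.0 to 25.9 RPKM in the other 5 libraries. Without *Pecam1*, the highest gene, the sums were 17.1 RPKM and 9.23 to 12.9 RPKM. H2A.Z AP3 EBs held the highest of the 6 values for 5 genes (*Cdh5*, *Kdr*, *Tie1*, *Emcn* and *Esam*) and the lowest for 0. For *Emcn* this rests on about 3 reads, against about 2 in EBs of the cells labelled H2A.Z KD. The share of all entries that are highest or lowest in that library was not computed, so these counts have no background beside them.

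**Figure D1:**
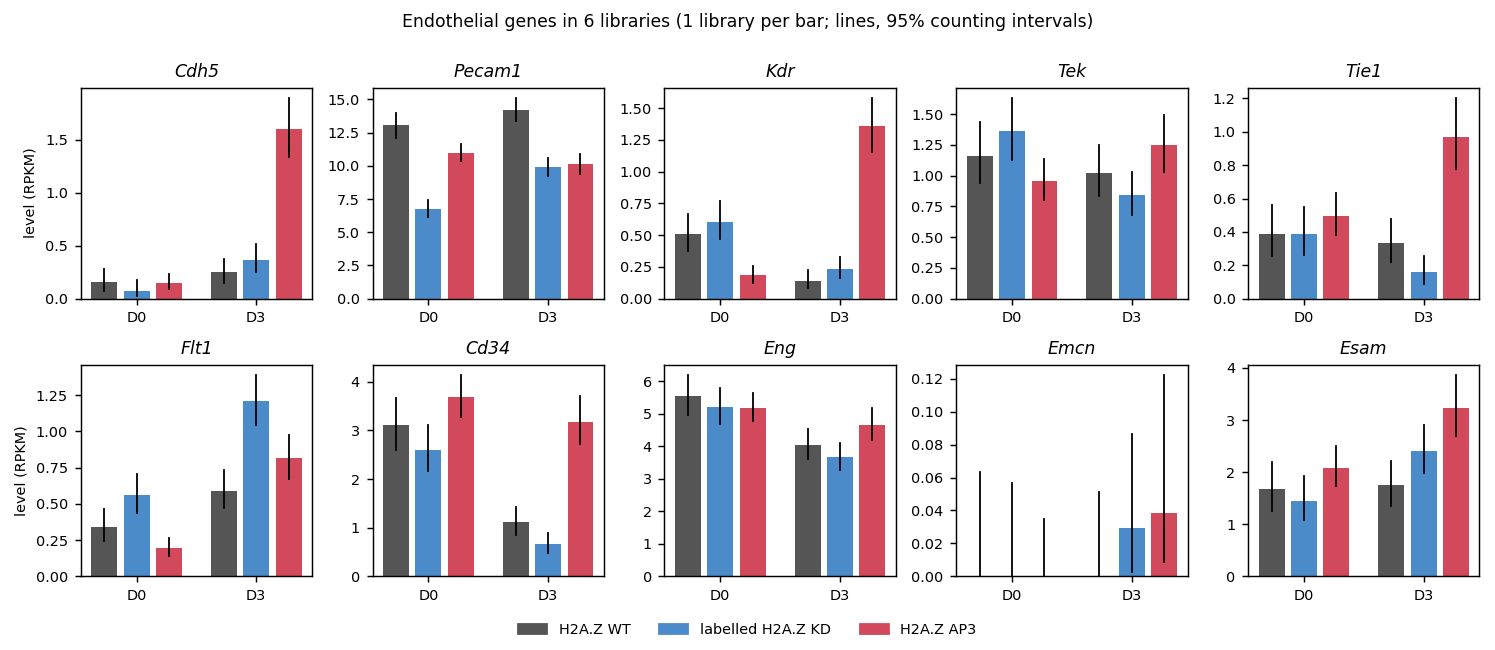
Level of each endothelial gene in the 6 libraries (RPKM, linear axis from 0 with its own scale per gene), with 1 bar per library and lines for the 95% Poisson intervals of the approximate read number, which cover counting error only. *Kdr* reached 1.36 RPKM and *Cdh5* 1.60 RPKM in H2A.Z AP3 EBs, apart from the other libraries, whereas *Eng* stayed between 3.66 and 5.55 RPKM and *Pecam1* was lowest in the D0 library labelled H2A.Z KD.

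Differences between libraries were taken as log2 ratios of RPKM + 0.001, and a gene was called higher or lower when the ratio passed 1.5-fold. Approximate read numbers were derived from RPKM, depth and transcript length, and their 95% Poisson intervals cover counting error only, because without molecular identifiers 1 molecule can give several reads. Intervals called apart or overlapping are those of the 2 levels. A range in brackets after a fold is the 95% counting interval of that ratio, which can exclude 1 where the level intervals overlap. In H2A.Z AP3 EBs, 6 of the 10 genes were higher than in H2A.Z WT EBs and 0 were lower (*Kdr*, *Cdh5*, *Tie1*, *Cd34*, *Esam* and *Emcn*). Over all entries, 10.4% were called higher and 11.7% lower in that comparison. For 5 of the 6 (all but *Emcn*) the counting intervals did not overlap, which held for 2.44% of the 20843 entries with a transcript length in the higher direction. The median log2 ratio of the 10 genes was 1.21 beside 0 over all entries, and with a pseudocount of 1 it was 0.38. With that pseudocount 4 genes (*Cdh5*, *Kdr*, *Cd34* and *Esam*) stayed past 1.5-fold, beside 1.41% of entries. Against the library labelled H2A.Z KD, 4 genes were higher in H2A.Z AP3 EBs (*Tie1*, *Kdr*, *Cd34* and *Cdh5*) and 0 were lower, beside 11.6% and 11.1% of all entries. The intervals were apart for all 4, and for 3.63% of entries, and the same 4 passed with a pseudocount of 1, beside 1.92% of entries. Both comparisons share the H2A.Z AP3 library, so they are not independent. Of 12 fibroblast genes, 6 were also higher in H2A.Z AP3 than in H2A.Z WT EBs and 1 was lower, and their summed level was 15.5 against 18.3 RPKM, or 11.9 against 9.10 RPKM without *Thy1*. Over the library labelled H2A.Z KD, 8 of these 12 were higher and 1 lower. Their part in the result was not tested. In cultures of mixed cells, fewer cells of a type and less RNA per cell cannot be told apart.

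**Figure D2:**
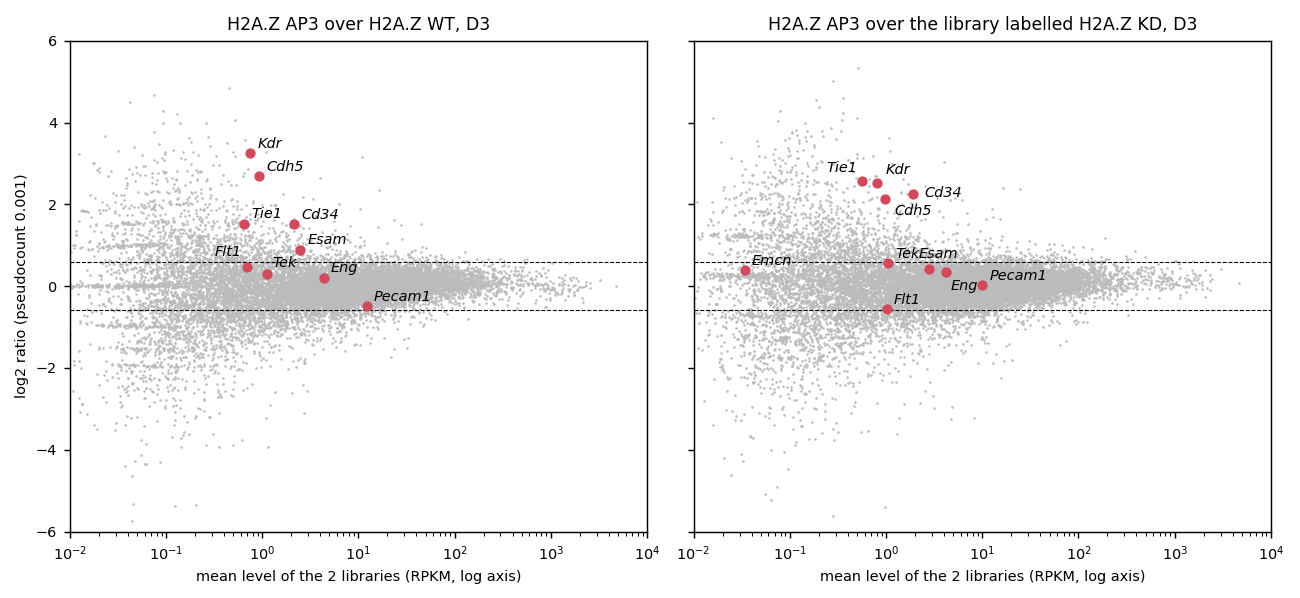
Log2 ratio of each entry (pseudocount 0.001) against its mean level in the 2 libraries compared (RPKM, log axis), for D3 H2A.Z AP3 over H2A.Z WT (left) and over the library labelled H2A.Z KD (right). Grey points are entries above 0 RPKM in both libraries, with a mean of at least 0.01 RPKM and a log2 ratio within 6, red points are the endothelial genes, and dashed lines mark 1.5-fold; *Kdr*, *Cdh5*, *Tie1* and *Cd34* lie above the upper line in both panels.

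*Kdr* (chr5:76329299-76374453 in mm9, minus strand, 30 exons in its longest annotated transcript) showed the widest difference of the receptors. Its level on D0 was 0.507 RPKM in H2A.Z WT, 0.188 RPKM in H2A.Z AP3 and 0.602 RPKM in the library labelled H2A.Z KD. On D3 it was 0.142, 1.36 and 0.236 RPKM in the same order, from about 17, 164 and 33 reads. H2A.Z AP3 was thus the lowest of the 3 lines on D0 and the highest on D3. On D3 the level in H2A.Z AP3 was 9.57-fold that of H2A.Z WT (counting interval 5.90 to 17.1) and 5.77-fold that of the library labelled H2A.Z KD (3.97 to 8.71). On D0 it was 0.370 times that of H2A.Z WT (0.227 to 0.576), and its interval lay below those of both other lines. From D0 to D3 *Kdr* fell in H2A.Z WT (log2 ratio -1.82) and in the cells labelled H2A.Z KD (-1.35), and rose in H2A.Z AP3 (2.85). The counting intervals of H2A.Z WT and the library labelled H2A.Z KD overlapped on both days.

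*Flt1*, the VEGF receptor that can act as a decoy (chr5:148373772-148537564, minus strand, 30 exons), had another order. It was at 0.340, 0.557 and 0.193 RPKM on D0 and at 0.589, 1.21 and 0.815 RPKM on D3, in the order H2A.Z WT, labelled H2A.Z KD, H2A.Z AP3. It rose from D0 to D3 in all 3 lines, with log2 ratios of 0.79, 1.12 and 2.07. On D3 the library labelled H2A.Z KD was the highest, 2.05-fold above H2A.Z WT (1.57 to 2.66), while H2A.Z AP3 was within 1.5-fold of both. The larger ratio over time in H2A.Z AP3 started from its low D0 level, 0.567 times that of H2A.Z WT (0.355 to 0.903). The level intervals of these 2 libraries overlapped.

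Of the Tie receptors, *Tie1* differed between the lines on D3 and *Tek* did not pass 1.5-fold. *Tie1* (chr4:118143796-118162454, minus strand, 22 exons) was at 0.386, 0.390 and 0.496 RPKM on D0 (H2A.Z WT, labelled H2A.Z KD, H2A.Z AP3) and at 0.334, 0.161 and 0.968 RPKM on D3. The D0 values had overlapping intervals. On D3 H2A.Z AP3 was 2.89-fold above H2A.Z WT (1.90 to 4.63) and 6.01-fold above the library labelled H2A.Z KD (3.56 to 11.2), which had about 16 reads. From D0 to D3 *Tie1* rose 1.95-fold in H2A.Z AP3 (1.40 to 2.78) and fell to 0.413 times its D0 level in the cells labelled H2A.Z KD (0.210 to 0.783). *Tek* (chr4:94405991-94541630, plus strand, 23 exons) was at 1.16, 1.37 and 0.957 RPKM on D0 and at 1.02, 0.843 and 1.25 RPKM on D3. Its D3 value in H2A.Z AP3 was 1.22 times that of H2A.Z WT (0.922 to 1.61). The only call for *Tek* was its decrease over time in the cells labelled H2A.Z KD, to 0.618 times the D0 level.

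*Eng* (chr2:32502115-32549695, plus strand, 14 exons) was within 1.5-fold in all 9 comparisons. It was at 5.55, 5.20 and 5.18 RPKM on D0 and at 4.04, 3.66 and 4.66 RPKM on D3, again in the order H2A.Z WT, labelled H2A.Z KD, H2A.Z AP3, from 297 to 557 reads. The D0 intervals of the 3 lines overlapped, and on D3 those of H2A.Z AP3 and H2A.Z WT did so too, while H2A.Z AP3 lay above the library labelled H2A.Z KD (1.27-fold, 1.09 to 1.49). From D0 to D3 *Eng* fell to 0.729 times its level in H2A.Z WT (0.620 to 0.854), with intervals apart. In the cells labelled H2A.Z KD it fell to 0.704 times (0.601 to 0.822), also with intervals apart. In H2A.Z AP3 it was 0.900 times (0.783 to 1.03), with overlapping intervals. For *Eng*, 185 annotated exonic bases (4.78%) also belong to *Ak1* or *Fpgs*, and whether reads were counted by strand is not given in the sources used here. The position given for *Eng* is that of the deposited entry, while the annotated gene ends earlier, at 32538189.

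Among the junction genes, *Cdh5* had its highest level in H2A.Z AP3 EBs. *Cdh5* (chr8:106625525-106668402, plus strand, 12 exons) was at 0.154, 0.0758 and 0.148 RPKM on D0, which rest on about 10, 6 and 18 reads, and at 0.248, 0.366 and 1.60 RPKM on D3, from about 20, 35 and 130 reads. All 3 D0 values lay below all 3 D3 values, and each of the 5 lowest values had an interval that overlapped that of its neighbour in the order of levels. The D3 level in H2A.Z AP3 was 6.44-fold that of H2A.Z WT (4.08 to 11.1) and 4.37-fold that of the library labelled H2A.Z KD (2.97 to 6.49). From D0 to D3 the ratio was 10.8-fold in H2A.Z AP3 (6.49 to 18.6), 4.83-fold in the cells labelled H2A.Z KD (1.88 to 13.1) and 1.62-fold in H2A.Z WT, where the intervals overlapped (0.721 to 3.86).

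*Esam* (chr9:37335674-37345902, plus strand, 7 exons) was at 1.68, 1.45 and 2.08 RPKM on D0 and at 1.74, 2.41 and 3.24 RPKM on D3, by line as above. On D3 H2A.Z AP3 was 1.86-fold above H2A.Z WT (1.37 to 2.54), and the library labelled H2A.Z KD lay between them, within 1.5-fold of both. *Esam* rose over time in the cells labelled H2A.Z KD (1.66-fold) and in H2A.Z AP3 (1.56-fold), and stayed at 1.04 times its D0 level in H2A.Z WT.

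*Pecam1* (chr11:106515532-106576595, minus strand, 16 exons) did not share the D3 pattern of the other junction genes. It was at 13.1, 6.77 and 10.95 RPKM on D0 and at 14.2, 9.92 and 10.1 RPKM on D3, in the same order of lines, from 429 to 1135 reads. H2A.Z WT was the highest on both days. On D0 the library labelled H2A.Z KD was at 0.519 times H2A.Z WT (0.459 to 0.585), and H2A.Z AP3 was 1.62-fold above it (1.45 to 1.82). On D3 both other lines were below H2A.Z WT but within 1.5-fold, with intervals apart for both. They stood at 0.711 times for H2A.Z AP3 (0.645 to 0.784) and 0.697 times for the library labelled H2A.Z KD (0.635 to 0.765). *Pecam1* was within 1.5-fold of its D0 level in all 3 lines. In the cells labelled H2A.Z KD it was 1.47 times that level (1.30 to 1.65), with intervals apart.

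The sialomucin *Cd34* (chr1:196765015-196803153, plus strand, 8 exons) fell from D0 to D3 in H2A.Z WT and in the cells labelled H2A.Z KD, and not in H2A.Z AP3. It was at 3.11, 2.61 and 3.69 RPKM on D0 and at 1.11, 0.662 and 3.18 RPKM on D3. The D3 level was 0.358 times the D0 level in H2A.Z WT (0.260 to 0.489) and 0.254 times in the cells labelled H2A.Z KD (0.173 to 0.361). In H2A.Z AP3 it was 0.863 times (0.710 to 1.05). On D3 H2A.Z AP3 was therefore 2.86-fold above H2A.Z WT (2.12 to 3.91) and 4.81-fold above the library labelled H2A.Z KD (3.43 to 6.99), at a level whose interval overlapped those of all 3 ESC libraries. For *Cd34*, 148 annotated exonic bases (5.65%) overlap the opposite-strand gene *Gm16897*. The position given for *Cd34* is that of the deposited entry, while the annotated gene ends earlier, at 196787486.

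*Emcn* (chr3:137004042-137094032, plus strand, 7 exons) was listed at 0 in all 3 D0 libraries and in H2A.Z WT EBs. It was at 0.0291 RPKM in EBs of the cells labelled H2A.Z KD and at 0.0386 RPKM in H2A.Z AP3 EBs, which correspond to about 2 and 3 reads. In H2A.Z WT EBs, 3 reads would have given 0.0414 RPKM, so both values are at or under what a count of 0 allows, and no fold is given. Its call as higher rests on the small pseudocount.

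Read by time within each line, the 10 genes divided differently. In H2A.Z WT, 2 were higher on D3 (*Flt1* and *Cdh5*) and 2 lower (*Kdr* and *Cd34*), beside 14.1% and 16.5% of all entries. In the cells labelled H2A.Z KD, 4 were higher (*Cdh5*, *Flt1*, *Esam* and *Emcn*) and 4 lower (*Kdr*, *Tek*, *Tie1* and *Cd34*), beside 14.0% and 16.2%. In H2A.Z AP3, 6 were higher (*Cdh5*, *Kdr*, *Flt1*, *Tie1*, *Esam* and *Emcn*) and 0 were lower, beside 14.7% and 16.3%. With intervals apart as well, these counts were 1 and 2 in H2A.Z WT (7.31% and 6.93% of entries), 3 and 4 in the cells labelled H2A.Z KD (7.43% and 6.83%), and 5 and 0 in H2A.Z AP3 (7.51% and 8.90%). The median log2 ratios of the 10 genes were -0.09, 0.02 and 0.80.

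**Figure D3:**
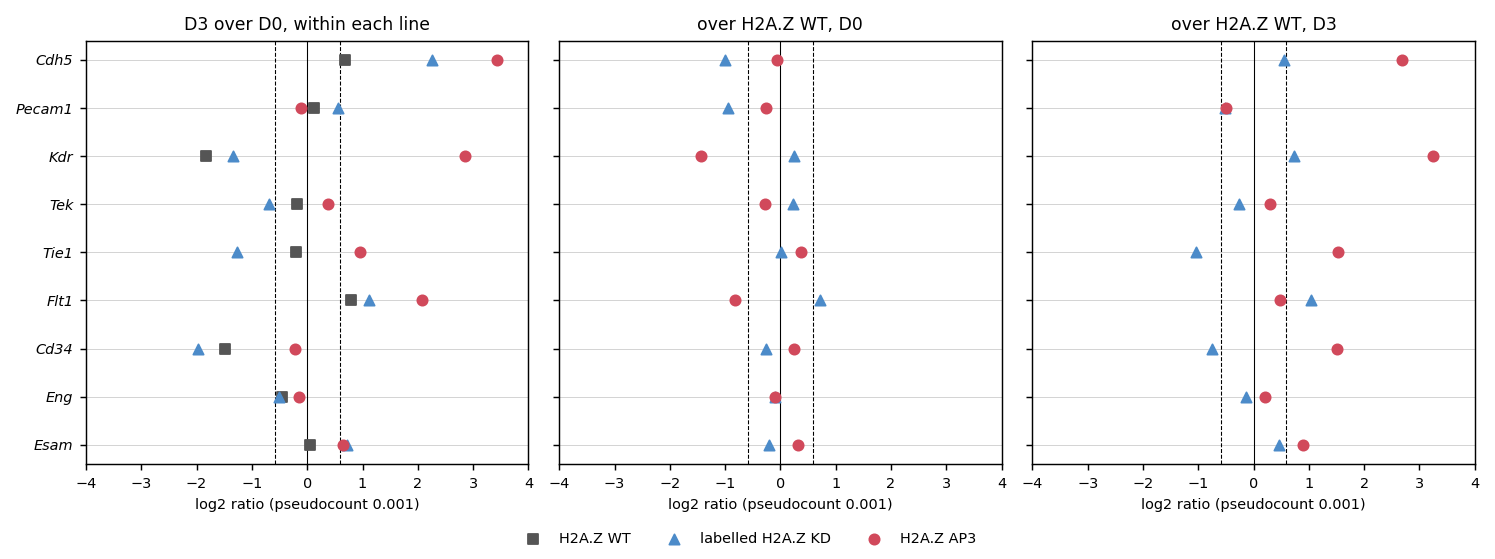
Log2 ratios (pseudocount 0.001) of 9 endothelial genes, from D0 to D3 within each line (left), and over H2A.Z WT on D0 (middle) and on D3 (right), with 1 library per condition and dashed lines at 1.5-fold. *Emcn* is left out because it was listed at 0 in most libraries; *Kdr* lies left of 0 for H2A.Z AP3 on D0 and right of 0 on D3.

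On D0, 2 to 4 of the 10 genes were called in each comparison between lines. In H2A.Z AP3 ESCs, 2 of the 10 were lower than in H2A.Z WT (*Kdr* and *Flt1*) and 0 higher, beside 13.9% lower and 11.1% higher over all entries. Only *Kdr* also had intervals apart (3.96% of entries were lower by that rule). In the ESC library labelled H2A.Z KD, *Pecam1* and *Cdh5* were lower and *Flt1* higher than in H2A.Z WT, beside 10.7% and 8.96% of entries, and only *Pecam1* had intervals apart (2.30%). H2A.Z AP3 over the library labelled H2A.Z KD gave 2 higher (*Cdh5* and *Pecam1*) and 2 lower (*Kdr* and *Flt1*), beside 13.5% in each direction; the intervals were apart for *Pecam1* (7.19% of entries) and for *Kdr* and *Flt1* (4.47%). On D3 the library labelled H2A.Z KD had 3 genes above H2A.Z WT (*Flt1*, *Kdr* and *Emcn*) and 2 below (*Tie1* and *Cd34*), beside 9.41% and 11.3%. Only *Flt1* had intervals apart there (2.20%), while the ratio intervals of *Tie1* (0.242 to 0.908) and *Cd34* (0.387 to 0.894) also lay below 1.

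The wider endothelial gene lists moved unevenly. Every list count over H2A.Z WT on D3 without a level filter stands beside 10.4% of all entries higher and 11.7% lower. Counts among genes that reached 1 RPKM in either library stand instead beside 4.20% higher and 5.98% lower of 11981 entries. Of 18 further receptors and ligands found, 5 were higher in H2A.Z AP3 than in H2A.Z WT EBs and 1 was lower. *Vegfc*, a ligand of the lymphatic VEGF receptor that can also bind *Kdr*, was the only one to pass of the 7 that reached 1 RPKM in either library, from 3.16 to 5.24 RPKM (log2 ratio 0.73). *Vegfa*, the main ligand of *Kdr* and *Flt1*, was at 24.3 and 19.6 RPKM (-0.31). Of 23 further junction, surface and secreted genes, 7 were higher and 2 lower, but of the 11 that reached 1 RPKM only 1 was higher and 1 lower. *Rasip1*, which acts in vessel lumen formation, went from 1.98 to 3.36 RPKM (0.76), and *Jam2*, a junctional adhesion molecule, from 15.4 to 8.67 RPKM (-0.82).

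Of 20 transcription factors of the endothelial and blood lineage, 12 were higher in H2A.Z AP3 than in H2A.Z WT EBs and 1 was lower, with a median log2 ratio of 0.78 (0.35 with a pseudocount of 1), beside the same 10.4% and 11.7% of all entries. Of the 12 that reached 1 RPKM in either library, 5 were higher and 1 was lower, beside 4.20% and 5.98% of entries under that filter. *Sox18*, a SoxF factor of endothelium, was on D3 at 0.206 RPKM in H2A.Z WT, 1.99 RPKM in H2A.Z AP3 and 0.200 RPKM in the library labelled H2A.Z KD. *Etv2*, an ETS factor that specifies blood and endothelium, was at 0.568, 1.89 and 0.548 RPKM, and *Gata2*, a factor of blood progenitors and endothelium, at 0.397, 1.58 and 0.447 RPKM in that order. *Elk3*, an ETS factor, was at 1.82, 3.50 and 1.79 RPKM. In these 4, H2A.Z AP3 stood above the other lines. *Sox7*, also a SoxF factor, had another order, at 2.83 RPKM in H2A.Z WT, 4.56 RPKM in H2A.Z AP3 and 6.27 RPKM in the library labelled H2A.Z KD. *Klf2*, a factor of endothelial cells under flow that ESCs also express, went the other way, from 63.0 RPKM in H2A.Z WT down to 33.3 RPKM in H2A.Z AP3 (-0.92). Over the library labelled H2A.Z KD, 13 of the 20 were higher and 1 lower, beside 11.6% and 11.1% of all entries. The lower one was *Sox17*, a SoxF factor of endoderm and endothelium, at 4.96 against 7.75 RPKM. *Elk3*, *Sox7* and *Sox17* are named beyond the limit of 4 genes, after their values were seen. *Fli1*, an ETS factor of endothelium and blood (0.102 to 0.939 RPKM), and *Tal1*, a master factor of blood (0.0655 to 0.600 RPKM), stayed below 1 RPKM and were picked after their values were seen. The library labelled H2A.Z KD gave 3 higher and 4 lower of the 20 against H2A.Z WT on D3 (9.41% and 11.3% of entries), and H2A.Z AP3 gave 8 and 4 on D0 (11.1% and 13.9%).

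**Figure D4:**
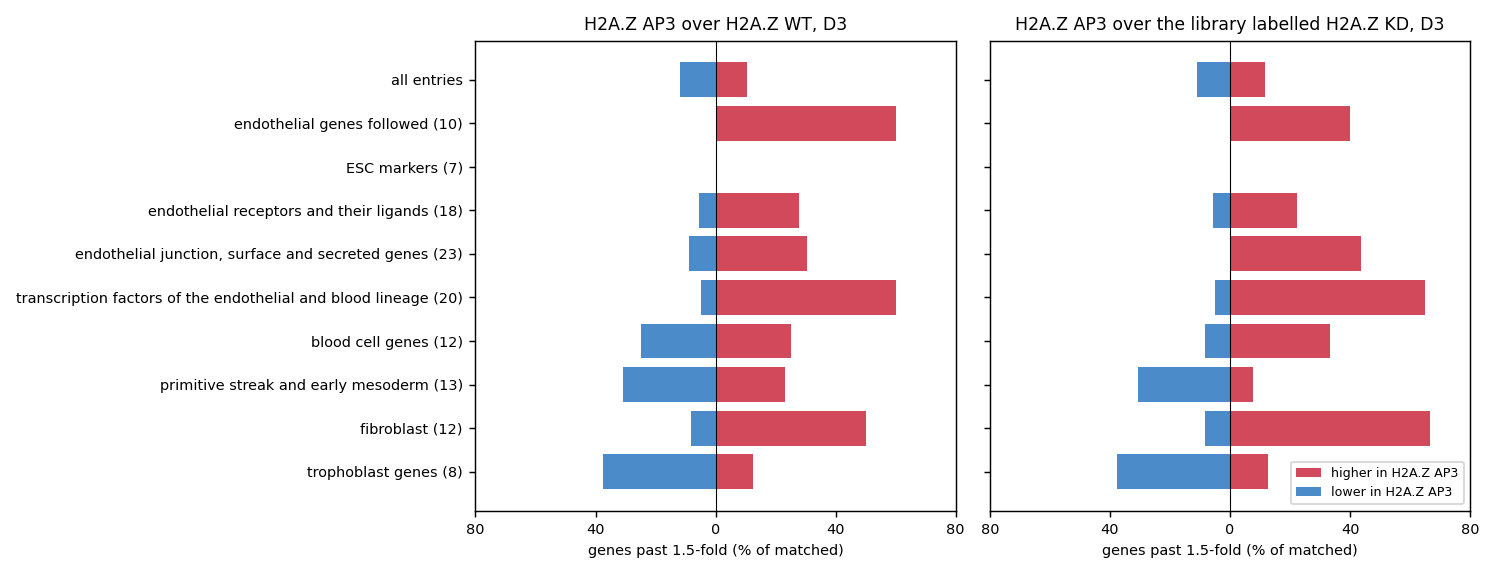
Share of the matched genes of each list (in percent, with the number matched in brackets) called higher (right of 0) or lower (left of 0) past 1.5-fold on D3, for H2A.Z AP3 over H2A.Z WT (left) and over the library labelled H2A.Z KD (right), without the 10 genes in the wider lists. Of the 20 transcription factors, 12 lie to the right and 1 to the left in the left panel, and of the 12 fibroblast genes 6 lie to the right and 1 to the left.

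Markers of other cells were read beside these genes. Of 12 fibroblast genes, which feeder cells would bring and which can go with *Cd34* and *Eng*, 6 were higher and 1 lower in H2A.Z AP3 than in H2A.Z WT EBs. *Col1a1* went from 1.54 to 2.57 RPKM, *Col1a2* from 1.30 to 2.36 RPKM, *S100a4* from 0.432 to 1.37 RPKM and *Thy1* from 9.19 to 3.56 RPKM. The summed level of the list was 43.0, 34.9 and 64.2 RPKM on D0 and 18.3, 11.9 and 15.5 RPKM on D3 (H2A.Z WT, labelled H2A.Z KD, H2A.Z AP3). *Thy1* made up much of the D3 sums and was the only one of the 12 called lower in H2A.Z AP3 than in H2A.Z WT EBs, while *Twist1* was at 2.86 against 3.83 RPKM, within 1.5-fold. With *Thy1* the D3 sum was lower in H2A.Z AP3 than in H2A.Z WT, and without it the order turned. Without it, a step chosen after its values were seen, the sums were 41.3, 32.5 and 62.5 RPKM on D0 and 9.10, 6.44 and 11.9 RPKM on D3, highest in H2A.Z AP3 and lowest in the library labelled H2A.Z KD on both days. The 8 higher and 1 lower over the library labelled H2A.Z KD stand beside 11.6% and 11.1% of all entries. *Lum* and *Postn*, matrix genes of mature fibroblasts, were listed at 0 in H2A.Z WT EBs and in EBs of the cells labelled H2A.Z KD. In H2A.Z AP3 EBs *Lum* was at 0.0329 RPKM, and it is counted among the 6, while *Postn* was again listed at 0. In H2A.Z AP3 ESCs *Lum* was at 0.333 RPKM, while both other ESC libraries had at most 0.0352 RPKM. *Postn* went the other way on D0, listed at 0 in H2A.Z AP3 and at 0.112 RPKM in H2A.Z WT. The part of such cells in the levels of the endothelial genes was not tested. Of 12 blood genes, 3 were higher and 3 lower, and the list summed to 12.3 to 16.6 RPKM over the 6 libraries. The embryonic globin genes *Hba-x* and *Hbb-y* were listed at 0 in all 6, and *Ptprc*, the leukocyte antigen CD45, was at most 0.0498 RPKM. *Itga2b*, an early blood marker, went from 0.405 to 1.03 RPKM in H2A.Z AP3 over H2A.Z WT EBs, and *Kit*, a receptor of blood progenitors and other stem cells, from 10.5 to 6.20 RPKM (log2 ratio -0.75). Of 13 primitive streak and early mesoderm genes, 3 were higher and 4 lower in H2A.Z AP3 than in H2A.Z WT EBs.

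The genes whose levels ran most like those of *Cdh5*, *Kdr* and *Cd34* were found by the Euclidean distance between centred log2(RPKM + 1) profiles over the 6 libraries. This measure is a description of 6 values. For *Cd34* they were *Vegfc* (distance 0.42), *Gata2* (0.43) and *Gadd45a* (0.46). For *Kdr* they were *Snora70* (0.28), *Serpini1* (0.32) and *Pon2* (0.33), and for *Cdh5* they were *Mir429* (0.26), *Unc45b* (0.31) and *Mir377* (0.33). The small RNA genes among them are not measured well by poly(A) libraries.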

How the data were processed

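Per the labels and the study's methods, poly(A) RNA was sequenced and aligned to mm9, and the authors deposited RPKM per gene. The submitters' processing notes list TopHat 1.14, Bowtie 0.12.7, Cufflinks 1.3.0 and Cuffdiff. The deposited table also holds log2 ratios between lines made by the authors, which are their comparisons and were not used.

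Each RPKM column was matched to its sample by name. Gene positions are those of the deposited entries, while strands and exon counts come from GENCODE. The genes and the gene lists were chosen with earlier results of these data known. Ratios were log2(RPKM + 0.001), called past 1.5-fold, over all 21639 entries. All 10 genes are named, and from other lists at most 4 genes per comparison that passed 1.5-fold and reached 1 RPKM in at least 1 library, plus defining markers; exceptions are stated. Depth was estimated from the spacing of low RPKM values over 3696 single-transcript genes longer than 1.5 kb, and the estimator was revised once because an earlier form placed 1 library at the edge of its search range. Approximate reads use the longest GENCODE transcript (NCBIM37), and the rule on 95% counting intervals was chosen after seeing the data. Ratio and depth scripts were tested on simulated data. Alternatives were pseudocounts of 0.1 and 1, a 1 RPKM filter, a 2-fold threshold, median centring and counting intervals. Computation used scipy 1.17.1, pandas 2.3.3 and numpy 2.4.6 under Python 3.11.15, and plots used matplotlib 3.10.9.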

Additional observations from a re-analysis of the deposited data

Results flagged for a closer look

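*Kdr* passed 1.5-fold in opposite directions in pairs of contrasts. Its log2 ratio from D0 to D3 was -1.82 in H2A.Z WT and 2.85 in H2A.Z AP3, a difference of 4.68, and it was -1.35 in the cells labelled H2A.Z KD, a difference of 4.20 from H2A.Z AP3. Seen by day, H2A.Z AP3 over H2A.Z WT was -1.43 on D0 and 3.25 on D3, which is the same difference of 4.68 since the 4 libraries are the same. H2A.Z AP3 over the library labelled H2A.Z KD was -1.67 on D0 and 2.52 on D3, again a difference of 4.20. With 1 library per condition these differences were not tested. With a pseudocount of 1 the signs held, but the negative ratios no longer passed 1.5-fold, at -0.43 to -0.34. The positive ratios were then 0.93 to 1.05 and still passed.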

How the results depend on the processing

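No replicate numbers pair libraries here, since each condition has 1 library. A day effect blocked by line could be fitted over the 3 lines and was not, because they differ in H2A.Z and are compared line by line. Most of the 10 genes were at a low level, at which a small pseudocount turns few reads into large ratios. The number past 1.5-fold on D3 stayed within 1.5 times its value for H2A.Z AP3 over H2A.Z WT (6) and over the library labelled H2A.Z KD (4) under all alternatives run, and with a pseudocount of 1 it was 4 in each, beside 1.41% and 1.92% of entries called higher. Median centring gave 1 lower gene in the second comparison (*Flt1*). No log2 ratio called past 1.5-fold changed sign.

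For H2A.Z AP3 over H2A.Z WT on D0, 2 genes passed, against 0 with a pseudocount of 1 or the 1 RPKM filter, and 1 with a 2-fold threshold or counting intervals. For the library labelled H2A.Z KD over H2A.Z WT on D0, 3 passed, against 1 with either pseudocount, the filter, 2-fold or intervals. On D3, 5 passed, against 3 with a pseudocount of 0.1, 0 with 1, 2 with the filter, 3 with 2-fold and 1 with intervals. For H2A.Z AP3 over the library labelled H2A.Z KD on D0, 4 passed, against 1 with a pseudocount of 1, 1 with the filter and 2 with 2-fold. From D0 to D3, H2A.Z WT had 4, against 1, 1 and 2 in that order. With a pseudocount of 0.1 or with intervals, this count and the one before were 3. The cells labelled H2A.Z KD had 8, against 1 with a pseudocount of 1 and 4 of 6 tested with the filter. With a pseudocount of 0.1, 2-fold and intervals they had 7, 6 and 7. H2A.Z AP3 had 6, against 3 with a pseudocount of 1 and 3 of 7 tested with the filter. With a pseudocount of 0.1, 2-fold and intervals it had 5, 4 and 5. Calls fell across the whole table as well. In either direction, 19.7% to 31.0% of all entries passed over the 9 comparisons, against 11.8% to 23.1% with a pseudocount of 0.1, 2.16% to 10.3% with 1, 8.02% to 24.3% with the filter, 12.5% to 19.8% with 2-fold and 3.60% to 16.4% with intervals. For the cells labelled H2A.Z KD over time these shares were 30.2%, against 9.19% with a pseudocount of 1 and 22.3% with the filter. The filter tests fewer genes, and the other causes were not tested.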

Other observations

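Of 8 trophoblast genes found, 1 was higher and 3 were lower in H2A.Z AP3 EBs than in H2A.Z WT EBs, and the list summed to 22.7 to 47.9 RPKM over the 6 libraries. The 7 ESC markers found summed to between 1664 and 2598 RPKM, and none of them passed 1.5-fold between lines on D3. On D0, *Klf4* and *Sox2* were lower in H2A.Z AP3, with log2 ratios of -0.88 and -0.80 over H2A.Z WT and -0.99 and -0.84 over the library labelled H2A.Z KD, beside 13.9% and 13.5% of all entries called lower in these comparisons.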
